A study of Mus musculus with 19 samples.

Results

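CD8 T cells that had infiltrated liver metastases were compared between mice that lost Tet2 throughout the blood system and mice that lost it in T cells. The comparison used 7 of the 19 RNA sequencing libraries of the series: 3 from Vav1CreTet2KO mice and 4 from Cd4CreTet2KO mice, each from a different animal and chosen by the genotype in the sample labels. All mice carried floxed Tet2 and were given colorectal cancer cells of the Venus-AKTPM/LOH line by injection into the spleen, and T cells were taken from the liver tumours on day 30. Vav1-Cre is active in blood stem cells and so in all their descendants, myeloid cells included, and it is also known to act in endothelium. Cd4-Cre is switched on in thymocytes before the CD4 and CD8 lineages part, so CD8 T cells carry the deletion although they do not express Cd4 themselves. The CD8 cells of both groups therefore come from a deleted lineage. The groups differ in the other blood cells, possibly in endothelium, in the stage at which T cells lost Tet2 and in the Cre transgene. These differences cannot be told apart here. The sources used here give no age or sex. The 3 Tet2fl/fl CD8 libraries, from mice with the floxed gene and no Cre named, helped to estimate the spread and are set beside the knockouts as reference levels, with no test against them.

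TET2 oxidises 5-methylcytosine in DNA and so opens the way to demethylation. Loss-of-function mutations of TET2 in blood stem cells are a common cause of clonal hematopoiesis, in which one clone supplies a large part of the blood, macrophages and dendritic cells as well as lymphocytes. CD8 T cells that meet tumour antigen for long periods take on an exhausted state, with the transcription factor TOX, inhibitory receptors such as PD-1 (Pdcd1) and falling cytokine output. The series' title places Tet2 loss in that setting. The comparison of both Cre lines asks whether the CD8 transcriptome differs with where and when Tet2 was lost.

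Values were RPKM, the reads on a gene per kilobase of its length, scaled to the reads of the library. Total reads on genes, recovered from the RPKM values, ranged from 8333458 to 12568865 in Vav1CreTet2KO libraries and from 13272000 to 20327809 in Cd4CreTet2KO libraries. The largest Vav1CreTet2KO total, of replicate 1, may be in another unit. That library had the fewest genes above 0 of the 7, 10762 against 12613 to 16258. Vav1CreTet2KO replicate 1 stood apart: its median rank correlation with the other CD8 libraries was 0.770 across genes, against 0.836 to 0.893 for the others, and it took up 1 end of the first principal component of the 7 libraries, which held 45.5% of the variance. Ribosomal protein genes took 12.2% of its reads on genes, against 5.60% to 9.25% in the other 6 libraries, and mitochondrial transcripts took 3.09% against 1.32% to 1.85%. Vav1CreTet2KO replicate 3 held the satellite-like gene models Gm10800 and Gm10718 at 741 and 1549 RPKM, while both were under 15 RPKM in the other 6. Cd4CreTet2KO replicates 1 and 2 held the most Lyz2 and Csf1r, of macrophages, described with the other cell types. For genes named with an unadjusted p under 0.05, the difference without Vav1CreTet2KO replicate 1, or without Cd4CreTet2KO replicates 1 and 2, is given where it moved by over 1.5 times.

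The sort was on CD45, CD3ε, CD4 and CD8α, and the CD8 label held in all 7 libraries. Cd8a, the CD8α chain, read 103, 169 and 113 RPKM in Vav1CreTet2KO and 103, 99.9, 119 and 117 in Cd4CreTet2KO libraries. Cd8b1, the CD8β chain, lay between 128 and 201 RPKM, and Cd3e, a CD3 chain found on all T cells, between 131 and 200. Cd4 was at most 1.59 RPKM in Vav1CreTet2KO and was 7.68, 2.27, 0 and 0.0158 in Cd4CreTet2KO libraries, so that it was highest in Cd4CreTet2KO replicate 1.

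Tet2 did not separate the groups. The table places it on chromosome 3 from 133169440 to 133250900 on the minus strand. It does not state the build of these coordinates, which may not be that named in the submitters' processing notes. Tet2 has 1 value for the whole gene, so the deleted stretch cannot be read apart from the rest. Its levels were 6.28, 5.57 and 2.93 RPKM in Vav1CreTet2KO and 7.57, 4.40, 3.02 and 5.02 in Cd4CreTet2KO libraries, and 7.65, 8.06 and 6.57 in Tet2fl/fl. Both knockouts thus covered the same range, and 1 Cd4CreTet2KO library reached the reference range. The log2 difference, Vav1CreTet2KO minus Cd4CreTet2KO, was -0.01 (95% interval -0.68 to 0.65), and its sign changed when single libraries were left out. Of 10 listed enzymes of DNA methylation and its removal, 9 were tested and 2 had positive differences, with a median of -0.17 against 0.04 for all genes. Tet3, a relative of Tet2 with the same activity, read 6.73, 13.4 and 7.79 RPKM against 11.7, 10.1, 11.7 and 11.6. Dnmt3b, a de novo DNA methyltransferase, was low throughout but did not overlap, at 2.29, 1.07 and 1.61 against 0.904, 0.466, 1.00 and 0.743 (log2 difference 0.56, interval -0.11 to 1.24). Dnmt1, which copies methylation after replication, had a difference of -0.48 (interval -1.02 to 0.06).

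No gene passed the test between the 2 knockouts. Of 10224 genes tested with limma on log2(RPKM + 1), 0 had an adjusted p under 0.05 (0%), the smallest adjusted p was 0.138, and 649 (6.35%) had an unadjusted p under 0.05, 372 higher in Vav1CreTet2KO (3.64%) and 277 lower (2.71%). Groups did not overlap for 463 genes (4.53%), 212 of them higher (2.07%) and 251 lower (2.46%). edgeR on the recovered reads also called 0 genes, with 620 at an unadjusted p under 0.05, voom called 0 with 363, and DESeq2 called 41, 13 higher and 28 lower. Called genes of DESeq2 included Ccl5, Lsm5, Bola1, Cdk15 and Ahnak on the higher side and H4c6, H3c10, Ifi204, Il1r2, Axl, Vegfa, Ddit4 and Nuf2 on the lower side. They also included satellite-like gene models such as Gm10800, and myeloid genes such as S100a9 that were high in 2 Cd4CreTet2KO libraries. Gm10800 read 10.5, 4.00 and 741 RPKM in Vav1CreTet2KO libraries and at most 0.306 in Cd4CreTet2KO libraries, without overlap. In Tet2fl/fl libraries it read 41.6, 96.1 and 0.0552. Gm10800, Cdk15, Ifi204 and Vegfa passed the filter, 1 RPKM in 3 or more of 10 libraries, only through the group where they were higher.

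The missing calls do not show that the groups were alike, and the intervals say how large a difference each gene could still have. The 95% interval of the difference lay inside 1 log2 unit either way for 4995 of the 10224 genes (48.9%), and the median standard error was 0.33. Over all genes the differences had a median of 0.04 and their central 95% ran from -0.88 to 0.93, and 5542 (54.2%) were positive and 4682 (45.8%) negative. Differences named from here on are on the log2(RPKM + 1) scale, which understates changes of genes near 0. Counts of list members are to be read against the shares of all genes given here: 54.2% positive, 3.64% and 2.71% with an unadjusted p under 0.05 on the higher and lower side, and 2.07% and 2.46% without overlap on these sides. None passed at an adjusted p of 0.05, the adjusted p was 0.721 or more unless another is given, and intervals are unadjusted. Bulk libraries cannot tell fewer cells of a type from less RNA per cell.

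**Figure D1:**
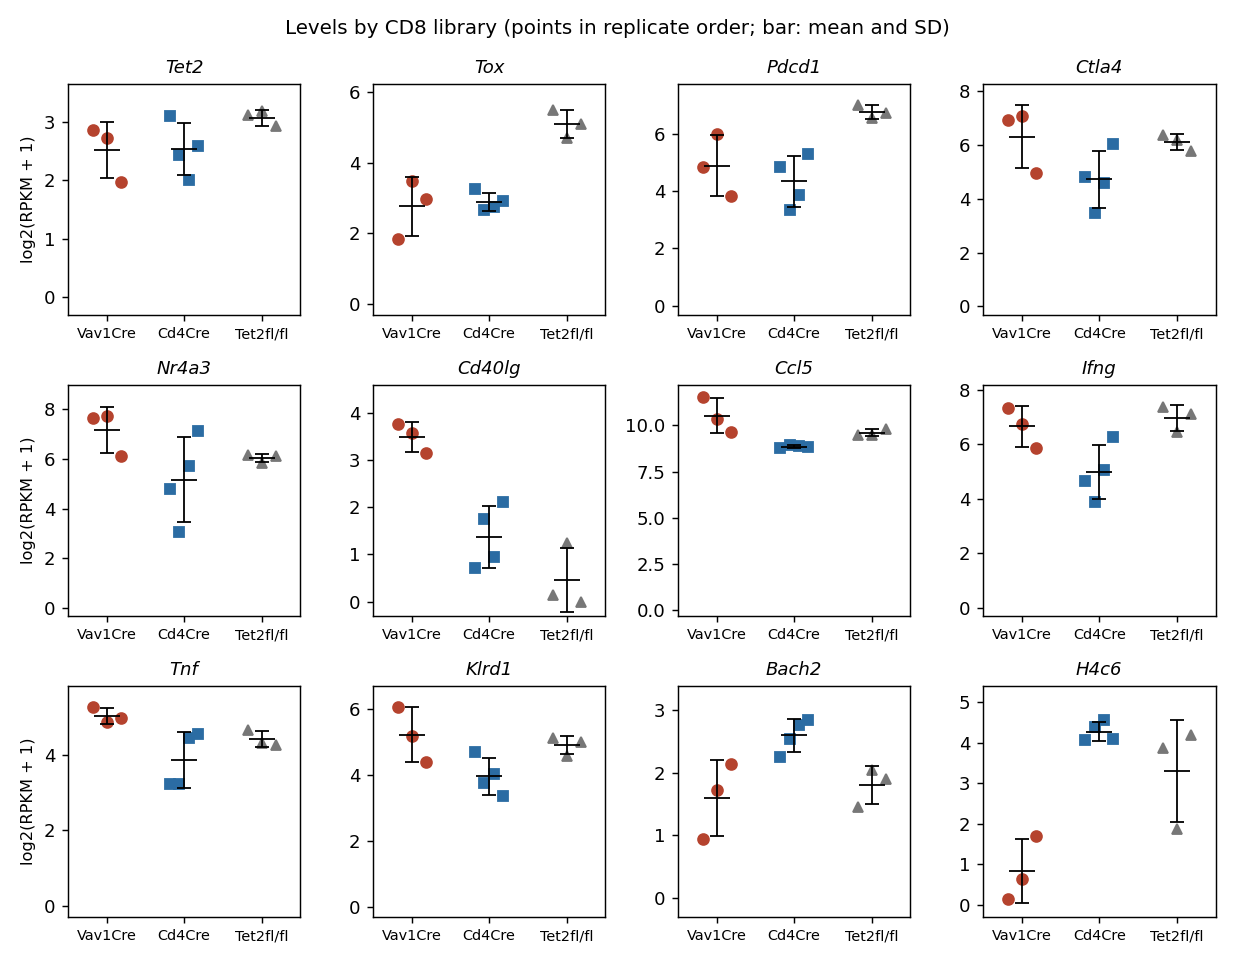
Levels of 12 genes in the 10 CD8 libraries, as log2(RPKM + 1), with 1 panel per gene and 1 point per library for Vav1CreTet2KO (circles), Cd4CreTet2KO (squares) and Tet2fl/fl (triangles), and the mean and SD as bars. Cd40lg and H4c6 show knockout groups that do not overlap, while Tet2, Tox and Pdcd1 overlap.

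Among exhaustion regulators the groups overlapped for every tested gene, and the NR4A nuclear receptors among them leaned higher in Vav1CreTet2KO. Of 18 listed genes 17 were tested, 10 were positive with a median of 0.01, 4 had an unadjusted p under 0.05 on the higher side (3.64% of all genes) and 0 on the lower, and 0 had groups that did not overlap. Tox, the factor that sets up exhaustion, read 2.6, 10.2 and 6.86 RPKM in Vav1CreTet2KO and 8.52, 5.36, 5.70 and 6.61 in Cd4CreTet2KO libraries, against 44.5, 25.1 and 33.7 in Tet2fl/fl. Each knockout library thus lay below each reference library, and both knockouts shared 1 range. The difference was -0.13 (interval -0.90 to 0.64) with all libraries and 0.33 without Vav1CreTet2KO replicate 1. Tox2, its close relative, differed by -0.29 (interval -1.02 to 0.43), and Ikzf2, the transcription factor Helios, by -0.66 (interval -1.49 to 0.17).

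The NR4A receptors are induced by T cell receptor signalling and take part in the exhaustion programme. Nr4a3 read 197, 210 and 67.4 RPKM in Vav1CreTet2KO and 26.5, 7.24, 51.3 and 136 in Cd4CreTet2KO libraries. The highest Cd4CreTet2KO library, replicate 4, lay above Vav1CreTet2KO replicate 3, and the lowest were replicates 1 and 2. Differences were 1.99 for Nr4a3 (interval 0.43 to 3.55), 1.83 for Nr4a2 (interval 0.23 to 3.43) and 1.05 for Nr4a1 (interval 0.06 to 2.04). Without Cd4CreTet2KO replicates 1 and 2 they were 0.75, 0.57 and 0.29. Those libraries held the most Lyz2 and Csf1r, and the part of other cells in these values was not tested.

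Inhibitory receptors varied as much within a genotype as between them. Of 17 listed genes 16 were tested, 11 were positive with a median of 0.27, and 1, Ctla4, had an unadjusted p under 0.05, on the higher side (3.64% of all genes). Pdcd1, which encodes PD-1, read 27.5, 61.6 and 13.3 RPKM in Vav1CreTet2KO and 27.8, 9.08, 13.4 and 38.4 in Cd4CreTet2KO libraries, against 127, 91.5 and 105 in Tet2fl/fl. The difference between the knockouts was 0.55 (interval -0.55 to 1.65). Lag3, a receptor for MHC class II, read 6.46, 27.5 and 4.38 against 28.7, 9.32, 11 and 17.0 (difference -0.62, interval -1.75 to 0.52). The differences were 0.35 for Havcr2 (TIM-3; interval -0.75 to 1.44), 0.44 for Tigit (interval -0.47 to 1.34) and 0.65 for Entpd1 (CD39; interval -0.31 to 1.61).

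Ctla4, a receptor that competes with CD28 for its ligands, read 119, 132 and 29.7 RPKM in Vav1CreTet2KO libraries. It read 26.7, 10.1, 22.6 and 64.8 in Cd4CreTet2KO libraries, so that Vav1CreTet2KO replicates 1 and 2 lay above all of them and replicate 3 lay within their range. The difference was 1.59 (interval 0.35 to 2.82), and 1.00 without Cd4CreTet2KO replicates 1 and 2. Regulatory T cells carry much Ctla4. Their list holds Ctla4 itself, and of its 8 tested genes 5 were positive with a median of 0.10. The part of such cells in the Ctla4 values was not tested. Cd38 and Cd160 differed by 0.60 (interval -0.01 to 1.21) and 0.48 (interval -0.06 to 1.02).

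**Figure D2:**
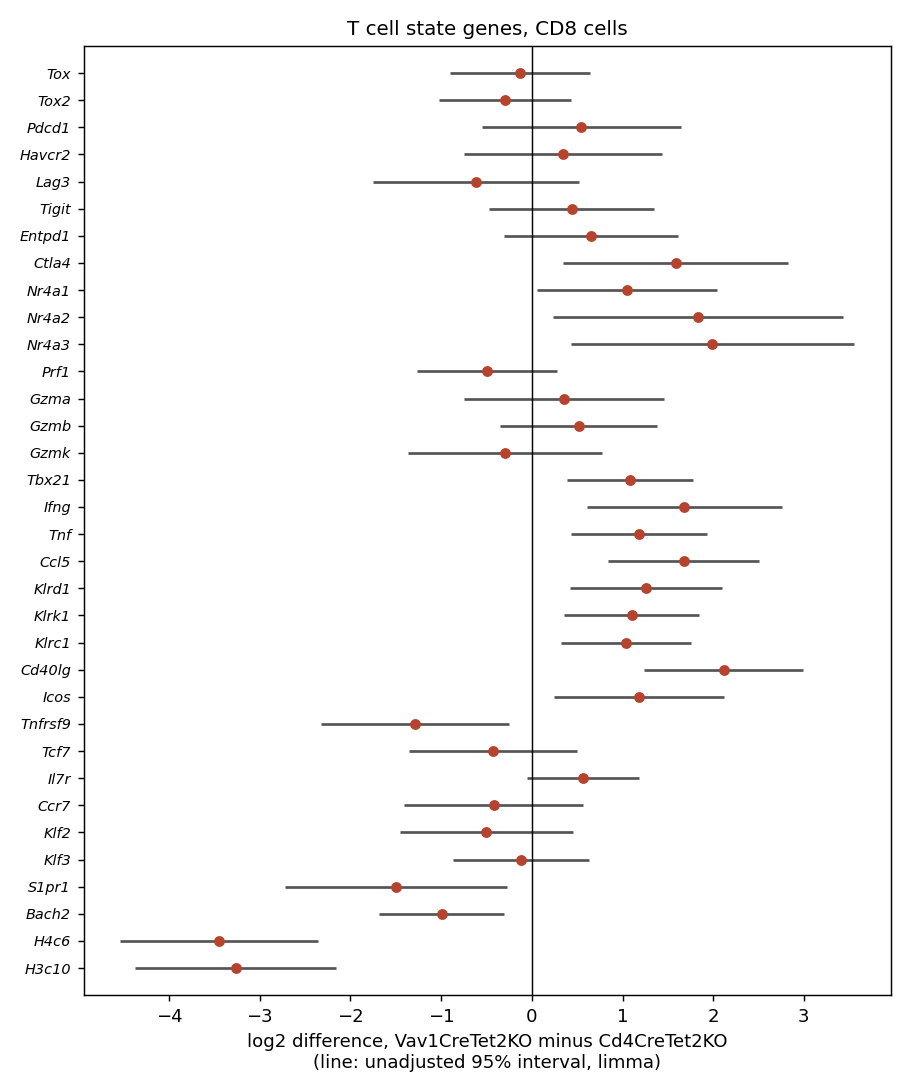
Log2 differences between the knockouts (Vav1CreTet2KO minus Cd4CreTet2KO) for genes of T cell state and 2 histone genes, with unadjusted 95% intervals from limma as lines. Intervals of Tox, Pdcd1, Havcr2, Lag3 and Tcf7 cross 0, those of Cd40lg (1.24 to 2.99) and H4c6 (-4.54 to -2.36) do not, and no gene passed after adjustment.

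Cytokines and chemokines of T cells were among the larger positive differences. Of 17 listed genes 14 were tested and 8 were positive with a median of 0.33, while 5 had an unadjusted p under 0.05 on the higher side and 0 on the lower, a share to be read against 3.64% of all genes. Ccl5, a chemokine of effector and memory CD8 cells, read 3020, 1309 and 807 RPKM in Vav1CreTet2KO and 439, 496, 463 and 449 in Cd4CreTet2KO libraries. All Vav1CreTet2KO libraries lay above all Cd4CreTet2KO libraries, and the Tet2fl/fl libraries, at 711, 719 and 899, lay between them apart from an overlap with Vav1CreTet2KO replicate 3. The Ccl5 difference was 1.67 (SE 0.38, interval 0.84 to 2.5), 3.19-fold on this scale, and 1.15 without Vav1CreTet2KO replicate 1.

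Tnf, which encodes an inflammatory and cytotoxic cytokine, read 38.1, 28.4 and 30.9 RPKM against 8.35, 8.44, 21.0 and 22.7, again with no overlap. The difference was 1.18 (interval 0.44 to 1.93), and 0.54 without Cd4CreTet2KO replicates 1 and 2, which were the lowest. Ifng, the interferon that marks effector function, read 161, 107 and 57.0 against 24.0, 13.8, 32.3 and 76.2. Here Cd4CreTet2KO replicate 4 lay above Vav1CreTet2KO replicate 3, and the Tet2fl/fl libraries, at 163, 86.0 and 138, lay within or just above the Vav1CreTet2KO range. The difference was 1.68 (interval 0.61 to 2.76), and 0.98 without Cd4CreTet2KO replicates 1 and 2. The chemokines Ccl4 and Ccl3, named after their values were seen, differed by 0.93 (interval 0.19 to 1.66) and 0.88 (interval 0.07 to 1.70), and by 0.59 and 0.48 without those libraries.

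Genes of the killing machinery overlapped, as did their regulator Tbx21, which stood higher in most Vav1CreTet2KO libraries. Of 21 cytotoxic effector genes 17 were tested, 13 were positive with a median of 0.36, and 3 had an unadjusted p under 0.05 on the higher side (3.64% of all genes). The median was 0.17 without Vav1CreTet2KO replicate 1, against 0.05 for all genes in the same fit. Gzmb, granzyme B, read 231, 323 and 130 RPKM against 106, 133, 170 and 205 (difference 0.52, interval -0.35 to 1.38). Prf1, the pore former perforin, read 4.43, 8.56 and 11.9 against 14.5, 11.7, 8.88 and 10.8 (difference -0.49, interval -1.27 to 0.28), all far below the Tet2fl/fl levels of 117, 44.3 and 65.1. Gzma and Gzmk had intervals from -0.75 to 1.46 and from -1.37 to 0.77.

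Tbx21, which encodes T-bet, a factor that drives effector genes, read 36.8, 52.5 and 26.7 RPKM against 13.5, 11.5, 18.8 and 28.5. Only Cd4CreTet2KO replicate 4 reached the Vav1CreTet2KO range, and the difference was 1.08 (interval 0.39 to 1.77), and 0.66 without Cd4CreTet2KO replicates 1 and 2. Srgn, which encodes the proteoglycan core of cytotoxic granules, differed by 0.99 (interval 0.23 to 1.75, and 0.65 without Vav1CreTet2KO replicate 1), and Fasl, the death ligand, by 0.81 (interval 0.11 to 1.51).

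NK receptors are carried by effector CD8 cells as well as by NK cells. Of 17 listed receptors and adaptors 17 were tested, 13 were positive with a median of 0.45, 4 had an unadjusted p under 0.05 on the higher side (3.64% of all genes), and 3 had Vav1CreTet2KO libraries all above Cd4CreTet2KO libraries (2.07% of all genes). Klrd1, the CD94 chain, read 66.2, 35.4 and 20.1 RPKM against 24.8, 12.4, 15.3 and 9.28, so that only Cd4CreTet2KO replicate 1 lay above the lowest Vav1CreTet2KO library. Klrc1, the NKG2A partner of CD94, read 85.2, 61.1 and 37.1 against 32.4, 29.1, 18.3 and 33.5, and Klrk1, the activating receptor NKG2D, 34.8, 17.7 and 15.8 against 12.5, 13.9, 6.14 and 7.28. Neither overlapped, and in both Vav1CreTet2KO replicate 1 was the highest. The differences were 1.26 for Klrd1 (interval 0.42 to 2.10), 1.04 for Klrc1 (interval 0.32 to 1.76) and 1.10 for Klrk1 (interval 0.36 to 1.85). They were 0.84, 0.77 and 0.76 without Vav1CreTet2KO replicate 1, and 1.52, 1.19 and 1.54 without Cd4CreTet2KO replicates 1 and 2. Ncr1, the NK cell receptor NKp46, read 3.36, 4.83 and 3.23 against 1.34, 3.38, 1.76 and 5.90, and overlapped. Tyrobp, the adaptor DAP12 of NK and myeloid cells, read 130, 55.0 and 27.9 against 84.1, 21.9, 10.6 and 11, highest in replicate 1 of both groups (difference 1.39, interval -0.16 to 2.93).

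Cd40lg had the largest positive difference among the costimulatory genes and the smallest p on the higher side. It encodes the CD40 ligand with which T cells, mostly CD4 helpers, stimulate dendritic cells, macrophages and B cells. It read 12.5, 10.9 and 7.82 RPKM in Vav1CreTet2KO and 0.647, 2.34, 0.914 and 3.30 in Cd4CreTet2KO libraries, and 0.0945, 1.35 and 0 in Tet2fl/fl. The lowest Vav1CreTet2KO library lay well above the highest of the others. The difference was 2.12 (SE 0.40, interval 1.24 to 2.99, limma adjusted p 0.371), 1.98 without Vav1CreTet2KO replicate 1 and 1.97 without Cd4CreTet2KO replicates 1 and 2. In edgeR on the recovered reads it was 2.35, with an unadjusted p of 0.054. Cd4 was at most 1.59 RPKM in the same Vav1CreTet2KO libraries, as given above. Of the 17 genes of the TNF family list 8 were positive, with a median of -0.14. Icos, a CD28 relative, differed by 1.18 (interval 0.25 to 2.12, 0.78 without Vav1CreTet2KO replicate 1 and 0.78 without Cd4CreTet2KO replicates 1 and 2), and Tnfrsf9, the activation receptor 4-1BB, by -1.28 (interval -2.32 to -0.25). Tnfrsf9 read 1.57, 5.51 and 1.69 against 15.2, 2.6, 6.85 and 11.3, below the Tet2fl/fl levels of 43.7, 30.0 and 49.5.

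Genes of naive, stem-like and memory cells overlapped with 2 exceptions, 1 on each side (2.07% of all genes on the higher side and 2.46% on the lower). Of 22 listed genes 22 were tested, 6 were positive with a median of -0.12, and 0 had an unadjusted p under 0.05 on the higher side and 3 on the lower (2.71% of all genes). Bach2, a repressor of effector differentiation, read 0.926, 2.29 and 3.41 RPKM against 3.78, 4.78, 5.74 and 6.14, with no overlap and a difference of -0.99 (interval -1.68 to -0.30). Tcf12, named after its values were seen, was the exception on the higher side, at a difference of 0.44. Tcf7, the factor TCF-1 of stem-like cells, read 48.7, 54.9 and 148 against 62.3, 114, 181 and 75.7 (difference -0.43, interval -1.36 to 0.50). S1pr1, the receptor by which lymphocytes leave tissue, read 1.73, 4.95 and 22 against 12.6, 24.4, 31.3 and 14.2 (difference -1.50, interval -2.72 to -0.27, and -0.80 without Vav1CreTet2KO replicate 1). Cxcr5, a follicle homing receptor, differed by -1.06 (interval -1.87 to -0.25). Il7r, the IL-7 receptor, differed by 0.57 (interval -0.05 to 1.19), Ccr7 by -0.42 (interval -1.41 to 0.57), Klf2 by -0.50 (interval -1.46 to 0.45) and Klf3 by -0.12 (interval -0.86 to 0.63).

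Homing receptors overlapped but for 1 gene, and 4 of 20 tested cytokine receptor and STAT5 feedback genes did not overlap, against 4.53% of all genes. S1pr4, a second receptor for sphingosine phosphate, read 2.95, 6.02 and 7.13 RPKM against 9, 7.47, 11.2 and 9.03, with no overlap (difference -0.73, interval -1.33 to -0.12, and -0.42 without Vav1CreTet2KO replicate 1). It was the one gene of 16 tested homing receptors whose groups did not overlap. Of the cytokine receptor and feedback genes 12 were positive with a median of 0.12, and groups did not overlap for 2 on each side (2.07% of all genes higher and 2.46% lower). Il18r1, a chain of the IL-18 receptor, read 22.5, 19.4 and 14.6 against 8.46, 11.2, 11.8 and 13.2 (difference 0.70, interval 0.15 to 1.24). Ifngr1, which binds interferon gamma, read 206, 142 and 126 against 103, 91.4, 105 and 115 (difference 0.57, interval 0.07 to 1.07, and 0.37 without Vav1CreTet2KO replicate 1). On the lower side were Socs2, a feedback inhibitor of cytokine signalling, and Il15ra, the IL-15 receptor α chain, both named after their values were seen, with differences of -0.54 and -0.32. Il18rap, the partner chain of Il18r1, overlapped at a difference of 0.58 (interval 0.02 to 1.13).

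Activation genes leaned higher in Vav1CreTet2KO libraries, and their median turned when 2 libraries were left out. Of 20 immediate early and feedback genes 16 were positive with a median of 0.38, which was -0.12 without Cd4CreTet2KO replicates 1 and 2, against 0.07 for all genes in that fit. Tnfaip3, the NF-κB brake A20, read 266, 268 and 180 RPKM against 57.8, 38.5, 183 and 230, so that Cd4CreTet2KO replicates 1 and 2 were low and replicates 3 and 4 were not. Its difference was 1.24 (interval 0.10 to 2.38), and 0.19 without those libraries. Fosl2, an AP-1 subunit, and Cd69, an early activation marker that holds cells in tissue, followed the same order, with differences of 1.29 and 1.03 that were 0.19 and 0.16 without them. Btg2, an antiproliferative early gene, did not overlap, at 117, 116 and 97.6 against 67.3, 51.1, 60.2 and 88.3 (difference 0.74, interval 0.23 to 1.25). Of 19 tested T cell receptor signalling genes 15 were positive with a median of 0.18, which was -0.07 without Cd4CreTet2KO replicates 1 and 2. Trbc1, a receptor β constant region, read 63.7, 40.4 and 33.3 against 20.8, 28.4, 30.1 and 30.9, with no overlap (difference 0.68, and 0.42 without Vav1CreTet2KO replicate 1). Cd3g overlapped at a difference of 0.96 (interval 0.13 to 1.78), which was 0.52 without that library and 0.62 without Cd4CreTet2KO replicates 1 and 2.

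**Figure D3:**
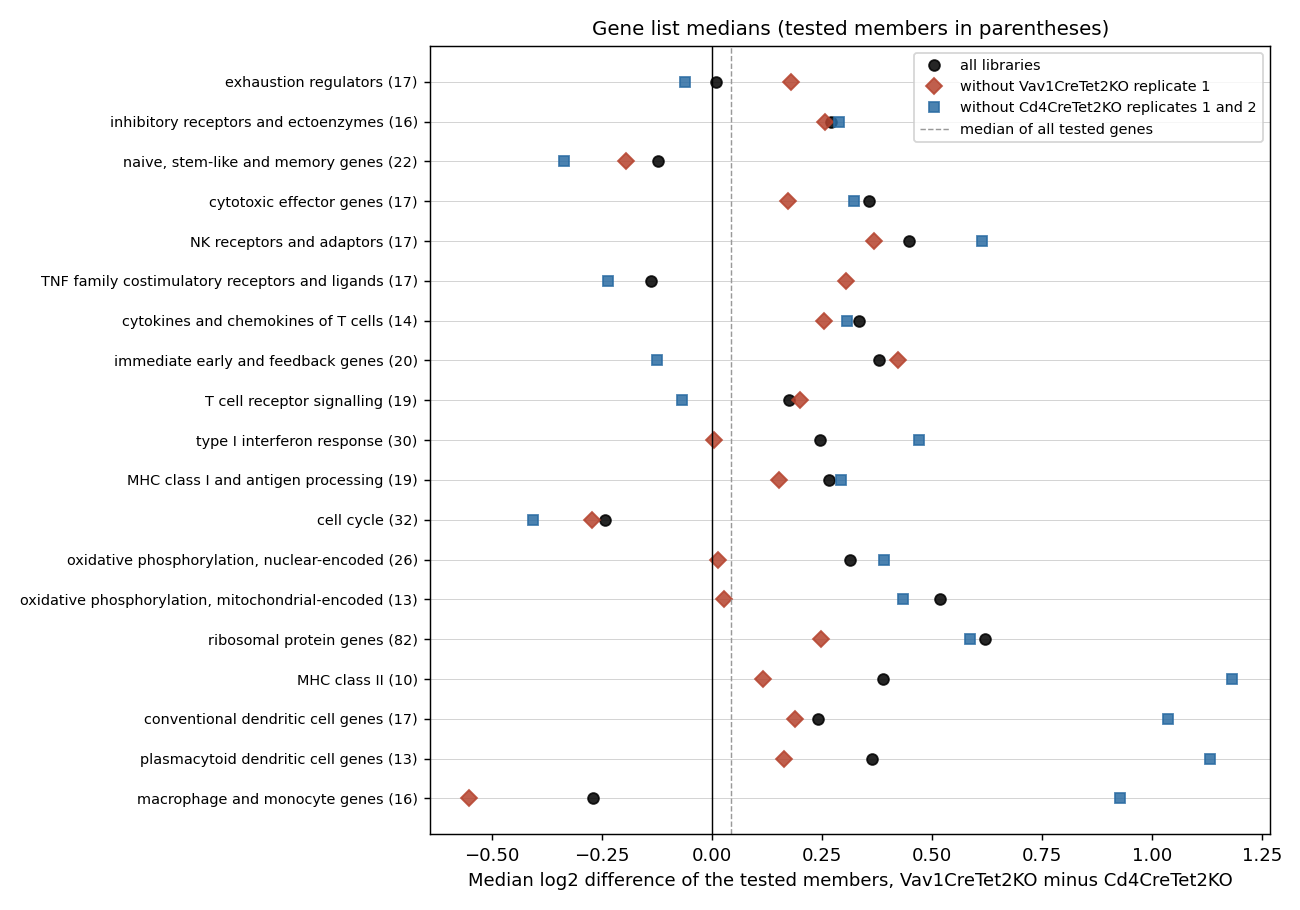
Median log2 difference (Vav1CreTet2KO minus Cd4CreTet2KO) of the tested members of 19 gene lists, with all libraries (circles), without Vav1CreTet2KO replicate 1 (diamonds) and without Cd4CreTet2KO replicates 1 and 2 (squares), and a dashed line at the median of all tested genes, 0.04. Ribosomal and mitochondrial lists move towards 0 without Vav1CreTet2KO replicate 1, and dendritic cell, macrophage and MHC class II lists move to about 1 without Cd4CreTet2KO replicates 1 and 2.

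Most cell cycle genes had negative differences, within the spread of the libraries. Of 32 listed genes 32 were tested, 4 were positive, the median was -0.24, and 1 had an unadjusted p under 0.05, on the lower side (2.71% of all genes). Plk1, the kinase of mitotic entry, read 0, 1.20 and 0.754 RPKM against 4.22, 2.37, 4.53 and 4.96, with no overlap (difference -1.64, interval -2.48 to -0.81). Cdc20, which activates the anaphase ligase, and Mcm2, a helicase subunit, overlapped, with differences of -0.98 (interval -2 to 0.04) and -0.73 (interval -1.52 to 0.06), which were -0.26 and -0.27 without Vav1CreTet2KO replicate 1. The median over the list was 0.10 without Vav1CreTet2KO replicate 3 and -0.62 without replicate 2, so that single libraries set its sign. Nuf2, a kinetochore protein and no member of the list, read 1.10, 1.59 and 0.758 against 4.10, 2.36, 3.22 and 2.91 (difference -0.95, interval -1.52 to -0.38).

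A pair of histone genes had the smallest p of all 10224 genes. Histone genes of this kind are transcribed in S phase and their messages end in a stem-loop in place of a poly(A) tail, which a total RNA kit such as the one used can capture. H4c6, which encodes histone H4, read 0.108, 0.563 and 2.23 RPKM in Vav1CreTet2KO and 15.7, 19.9, 22.5 and 16.1 in Cd4CreTet2KO libraries, and 13.6, 2.65 and 17.2 in Tet2fl/fl. H3c10, which encodes histone H3, read 0, 0 and 1.17 against 14.1, 11.3, 16.8 and 6.27, and 11.6, 3.36 and 1.51 in Tet2fl/fl. In both, every Vav1CreTet2KO library lay below every other library. The differences were -3.45 for H4c6 (SE 0.50, interval -4.54 to -2.36) and -3.27 for H3c10 (SE 0.51, interval -4.37 to -2.16), both at a limma adjusted p of 0.138. With the 7 compared libraries alone in the fit both passed, at adjusted p of 0.0232 and 0.0445, and DESeq2 also called them. In edgeR their differences were -4.21 and -4.80 with unadjusted p of 0.00178 and 0.00816.

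Other histone genes had differences on both sides. Histone genes were put together after these values were seen, H4c6 and H3c10 among them: 53 of 58 in the table were tested, 16 were positive, the median was -0.21, and 7 had an unadjusted p under 0.05 on the lower side (2.71% of all genes) and 1 on the higher (3.64%). Groups did not overlap for 4, all lower (2.46% of all genes): H4c6, H3c10, H4c14, named after its values were seen, and H4c1, at 5.58, 7.86 and 6.96 RPKM against 20.2, 23.2, 19.9 and 8.79 (difference -1.22, interval -1.90 to -0.53). H4c9, also named after its values were seen, was the one on the higher side, at a difference of 1.39, and 2.29 without Cd4CreTet2KO replicates 1 and 2. The genes encode nearly identical proteins, and the sources used here do not say how reads shared between copies were assigned, so values of single copies are uncertain.

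Interferon genes were mostly positive by small amounts. Of 32 listed type I interferon response genes 30 were tested and 23 were positive with a median of 0.24, which was 0.0048 without Vav1CreTet2KO replicate 1. Bst2, tetherin, which plasmacytoid dendritic cells also carry, read 126, 27.6 and 21.8 RPKM against 35.6, 24.1, 16.1 and 8.96 (difference 1.13, interval -0.07 to 2.33), highest in Vav1CreTet2KO replicate 1 and at 0.36 without it. Ifit1, an RNA sensor, read 6.58, 6.28 and 2.99 against 2.67, 4.18, 3.40 and 2.05 (difference 0.60, interval -0.08 to 1.27). Ifi204, a DNA-binding protein of the interferon response, lay the other way, at 0.259, 0.623 and 0.133 against 8.83, 3.77, 3.01 and 3.06, with no overlap. Its difference was -1.99 (SE 0.46, interval -2.99 to -0.99), and it was -1.61 without Cd4CreTet2KO replicates 1 and 2. Ifi204 belongs to a cluster of similar genes, so its single value is uncertain.

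Of 16 GTPases induced by interferon gamma 12 were positive with a median of 0.31, and 0 had an unadjusted p under 0.05. MHC class I and antigen processing genes had 15 positive of 19 tested, a median of 0.27, and 0.15 without Vav1CreTet2KO replicate 1. B2m, the light chain of MHC class I, read 1574, 913 and 666 RPKM against 751, 551, 597 and 527, so that only Cd4CreTet2KO replicate 1 lay above the lowest Vav1CreTet2KO library (difference 0.71, interval 0.02 to 1.40, and 0.38 without Vav1CreTet2KO replicate 1). Psme1, a proteasome activator subunit, read 834, 233 and 169 against 202, 150, 203 and 173, apart in Vav1CreTet2KO replicate 1 (difference 0.82, and 0.13 without that library).

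Ribosomal protein genes were mostly positive, and their size followed 1 library. Of 86 listed genes 82 were tested and 77 were positive (54.2% of all genes) with a median of 0.62, while 25 had an unadjusted p under 0.05 on the higher side (3.64% of all genes) and 0 on the lower, and 11 did not overlap, all higher (2.07% of all genes). Without Vav1CreTet2KO replicate 1 the median was 0.25. Rps27, of the small subunit, read 1133, 305.1 and 395 RPKM against 180, 200, 309 and 173 (difference 1.29, and 0.73 without that library). Rpl38, of the large subunit, read 858, 211 and 266 against 174, 146, 201 and 134, with no overlap (difference 1.17, and 0.55 without it). Rpl29 read 1394, 564 and 485 against 218, 180, 658 and 211, and overlapped through Cd4CreTet2KO replicate 3 (difference 1.41, and 0.94 without Vav1CreTet2KO replicate 1). Many ribosomal protein genes have processed pseudogenes that share their reads.

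Oxidative phosphorylation genes were also mostly positive: 18 of 26 nuclear-encoded genes were positive with a median of 0.31, and 13 of 13 mitochondrial-encoded genes with a median of 0.52. Without Vav1CreTet2KO replicate 1 both medians were near 0, at 0.01 and 0.03, whereas the ribosomal median was 0.25. Cox6c, a subunit of complex IV, read 343, 75.4 and 41.8 RPKM against 56.4, 30.0, 49.8 and 38.2, and mt-Atp8, of the ATP synthase, 3344, 715 and 597 against 604, 387, 610 and 605. Only Vav1CreTet2KO replicate 1 lay far above the rest in both, and without it the differences of 1.26 and 1.05 were 0.40 and 0.27. Gene length moved with these values: with tested genes in 4 equal classes by length, the shortest class had a median difference of 0.16 and the others 0.0053 to 0.03. Without Vav1CreTet2KO replicate 1 the shortest class had 0.04. The part of length or RNA quality in the lists was not tested.

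Stress and survival genes split by gene. Hspa1a, an inducible HSP70, read 25.8, 58.6 and 256 RPKM against 180, 217, 177 and 217 (difference -1.41, interval -2.62 to -0.21, and -0.68 without Vav1CreTet2KO replicate 1), with Vav1CreTet2KO replicate 3 above the Cd4CreTet2KO range and the others below it, and 822, 724 and 525 in Tet2fl/fl. Hspe1, a mitochondrial chaperonin, differed by 1.00 (interval 0.08 to 1.92), and 0.43 without Vav1CreTet2KO replicate 1. Of 13 tested chaperones 9 were positive with a median of 0.24. Pmaip1, the BH3-only protein NOXA, read 274, 62.1 and 21.9 against 27.6, 13.0, 19.3 and 40.5 (difference 1.61, and 0.66 without that library), and Bcl2a1b, a survival relative of BCL2, differed by 1.15 (interval 0.23 to 2.07). Of 19 tested glycolysis and hypoxia genes 7 were positive with a median of -0.11, and 0 had an unadjusted p under 0.05.

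**Figure D4:**
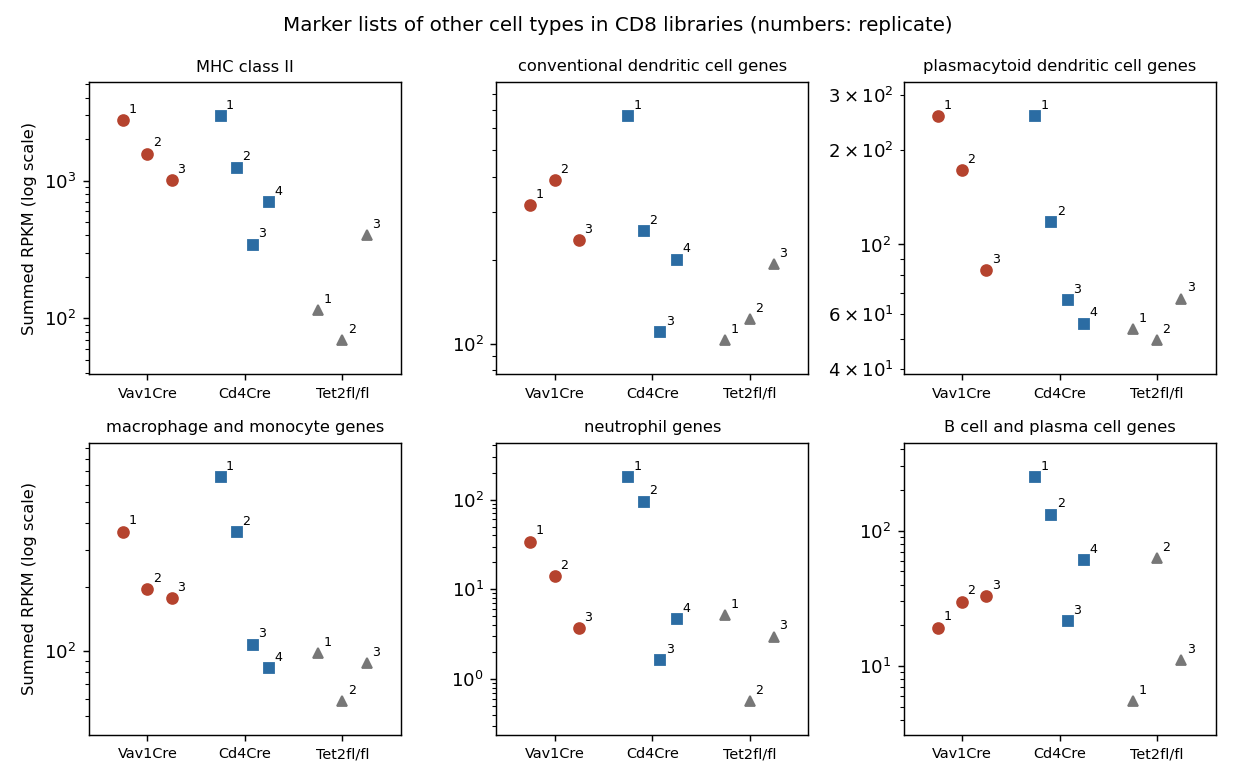
Summed RPKM of 6 marker lists of other cell types in the 10 CD8 libraries, on a log scale, with 1 point per library and its replicate number beside it. Cd4CreTet2KO replicates 1 and 2 hold the highest neutrophil and B cell or plasma cell sums. Their macrophage sums are also the highest apart from Vav1CreTet2KO replicate 1, which reaches the level of Cd4CreTet2KO replicate 2. Ly6c2 alone gives 110 RPKM of that Vav1CreTet2KO sum.

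Transcripts of other immune cells were present in the sorted libraries of both knockouts. Dendritic cell and MHC class II genes overlapped between the groups. The 11 MHC class II genes summed to 2756, 1570 and 1008 RPKM in Vav1CreTet2KO and 2941, 1243, 343 and 694 in Cd4CreTet2KO libraries, and to 115, 69.2 and 404 in Tet2fl/fl. The 17 conventional dendritic cell genes summed to 237 to 391 RPKM in Vav1CreTet2KO, 110 to 664 in Cd4CreTet2KO and 103 to 194 in Tet2fl/fl libraries, so that the reference range met that of Cd4CreTet2KO but not that of Vav1CreTet2KO. The 13 plasmacytoid dendritic cell genes summed to 82.7 to 257 RPKM, 55.8 to 257 and 49.4 to 67.2, in the same order of groups. Bst2, given above, made up 126 RPKM of the sum in Vav1CreTet2KO replicate 1. H2-Aa, an MHC class II chain, differed by 0.94 between the knockouts (interval -0.57 to 2.44), H2-Ab1 by 0.94 (interval -0.77 to 2.65) and the invariant chain gene Cd74 by 0.61 (interval -0.89 to 2.11). Clec9a, a marker of cross-presenting dendritic cells, which can carry CD8α, read 10.4, 15 and 9.91 against 21.6, 8.37, 1.86 and 7.38. Siglech, of plasmacytoid dendritic cells, read 25.1, 38.6 and 14.6 against 59.3, 16.9, 6.11 and 8.42, and Flt3, the receptor of their growth factor, 17.3, 17.0 and 8.71 against 31.0, 9.83, 5.31 and 7.11. In all 3 genes Cd4CreTet2KO replicate 1 was the highest library, and replicates 2 to 4 of that group lay below most of the Vav1CreTet2KO libraries. Without Cd4CreTet2KO replicates 1 and 2 the list medians were 1.18 for MHC class II, 1.04 for conventional and 1.13 for plasmacytoid dendritic cell genes, against 0.39, 0.24 and 0.36 with them.

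Several macrophage, neutrophil and plasma cell genes were highest in Cd4CreTet2KO replicates 1 and 2. Lyz2, lysozyme of myeloid cells, read 3.45, 7.61 and 5.67 RPKM in Vav1CreTet2KO and 172, 88.2, 2.06 and 2.82 in Cd4CreTet2KO libraries. Csf1r, the receptor that macrophages need, read 0.289, 1.01 and 0.771 against 13.2, 9.97, 0.0241 and 0.704, and S100a9, of neutrophils, 0, 0.211 and 0.502 against 57.4, 33.1, 0.115 and 0.235. Adgre1 (F4/80) was at most 0.498 in Vav1CreTet2KO and was 3.48, 1.84, 0.381 and 0.152 in Cd4CreTet2KO libraries. The 22 macrophage and monocyte genes summed to 365, 195 and 177 RPKM in Vav1CreTet2KO and 659, 362, 108 and 83.1 in Cd4CreTet2KO libraries. Vav1CreTet2KO replicate 1 reached the level of Cd4CreTet2KO replicate 2 in this sum, but not in Lyz2, Csf1r or Adgre1. Ly6c2, a member of the list, gave 110 RPKM of the sum in Vav1CreTet2KO replicate 1 and 48.4 in Cd4CreTet2KO replicate 2. Of the 16 tested 6 were positive. Differences of Lyz2, Csf1r and S100a9 were -1.70, -1.29 and -2.57, and without Cd4CreTet2KO replicates 1 and 2 they were 0.89, 0.33 and 0.06.

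Igkc, the κ light chain constant region, read 7.09, 7.45 and 10.3 RPKM against 200, 82.9, 2.71 and 48.5, and Jchain, of plasma cells, 0.213, 0 and 0.251 against 11.8, 2.91, 0 and 1.59 (difference -1.55, and -0.48 without Cd4CreTet2KO replicates 1 and 2). Cd79a, of the B cell receptor, read 0.32, 0 and 0.30 against 1.47, 4.93, 2.21 and 0.118 (difference -1.17, and -0.66 without them), and Ms4a1 (CD20) was 0 in Vav1CreTet2KO replicate 2 and at most 1.13 elsewhere. Cd79a reached 1 RPKM only in Cd4CreTet2KO libraries, so it passed the filter only through that group. All 5 tested genes of the B cell and plasma cell list were negative, with a median of -1.17. Alb, of hepatocytes, was at most 2.19 RPKM, and was 0 in Vav1CreTet2KO replicate 1 and Cd4CreTet2KO replicate 4. Epcam, of epithelium, was 5.56, 0.978 and 1.49 against 3.01, 1.23, 0.548 and 1.10. Lgals4, an intestinal epithelial galectin, read 0, 3.53 and 0.983 against 3.10, 2.12, 3.45 and 3.35 (difference -0.93, and -0.40 without Vav1CreTet2KO replicate 1). The part of these cells in other results was not tested.

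Further genes whose groups did not overlap were taken by smallest p, up to 15 on each side, leaving out unnamed models and receptor segments. On the higher side, Lsm5, a subunit of the RNA-binding LSm ring, read 114, 39.8 and 24.4 RPKM against 10.7, 7.67, 13.8 and 15 (difference 1.98, interval 1.08 to 2.88, limma adjusted p 0.572). Bola1, a mitochondrial iron-sulfur protein, read 11.4, 5.19 and 4.15 against 1.72, 1.53, 0.667 and 1.32 (difference 1.69, interval 0.93 to 2.46, limma adjusted p 0.572). Both were lower without Vav1CreTet2KO replicate 1, at 1.37 and 1.31. Ahnak, which encodes a very large scaffold protein, read 115, 120 and 76.8 against 59.7, 48.2, 59.9 and 62.4 (difference 0.82, interval 0.33 to 1.32), and here replicate 1 was not apart.

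Cd34, a surface glycoprotein of blood progenitors and endothelium, read 4.91, 4.09 and 1.69 RPKM in Vav1CreTet2KO libraries. It read 1.34, 0.999, 0 and 0 in Cd4CreTet2KO libraries and 0.226, 0 and 0.112 in Tet2fl/fl (difference 1.56, interval 0.70 to 2.41). Cdk15, a cyclin-dependent kinase relative, read 3.84, 1.04 and 2.05 against 0.469, 0.217, 0.143 and 0.233 (difference 1.31, interval 0.62 to 2.00). Cd34 and Cdk15 passed the filter, 1 RPKM in 3 or more libraries, only through Vav1CreTet2KO. They were thus tested because that group was high. Gtf2f2 and Polr2f, of the RNA polymerase II machinery, differed by 0.99 and 1.16. The others on this side were Pigp, Arxes2, Smim4, Mbip and Rrad, with differences of 1.52, 1.48, 1.33, 1.13 and 1.31. Arxes2 was at 0.93 without Vav1CreTet2KO replicate 1, and Rrad at 0.79 without Cd4CreTet2KO replicates 1 and 2.

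On the lower side, Ddit4, an inhibitor of mTORC1 that stress and glucocorticoids induce, read 2.90, 3.36 and 2.69 RPKM against 7.85, 6.83, 5.09 and 6.63, with small spread in both groups (difference -0.92, SE 0.23, interval -1.43 to -0.42). The Tet2fl/fl libraries, at 16.2, 18.9 and 13.4, lay above both. Il1r2, a decoy receptor for IL-1, read 0.0444, 0.173 and 0 against 5.92, 1.93, 0.725 and 2.59, and 13.9, 12.8 and 5.84 in Tet2fl/fl (difference -1.64, interval -2.58 to -0.71). Axl, a TAM receptor kinase, read 2.11, 2.36 and 1.41 against 9.99, 6.72, 2.98 and 4.93, and 20.2, 15.2 and 10.8 in Tet2fl/fl (difference -1.19, interval -1.94 to -0.45). For Ddit4, Il1r2 and Axl the order was therefore the same, with Vav1CreTet2KO lowest and Tet2fl/fl highest apart from an overlap of 1 Cd4CreTet2KO Il1r2 value with the reference range.

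Vegfa, the vascular growth factor, read 0.277, 0.766 and 0.52 RPKM against 5.88, 1.57, 1.87 and 3.04 (difference -1.33, interval -2.09 to -0.56). The order differed here, as Tet2fl/fl Vegfa levels of 1.11, 1.03 and 0.559 lay below every Cd4CreTet2KO library and overlapped Vav1CreTet2KO. Its highest value came from Cd4CreTet2KO replicate 1, as did that of Axl and Il1r2. Without Cd4CreTet2KO replicates 1 and 2 the differences were -1.17 for Vegfa, -1.22 for Il1r2, -0.73 for Axl and -0.78 for Ddit4. The remaining genes on this side were Rex1bd, Trappc6a, B3gntl1, Ado and Tmem63b, with differences of -1.82, -1.52, -1.16, -1.10 and -1.02, and Rex1bd was at -1.15 without Vav1CreTet2KO replicate 1.

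CD4 T cells of the same genotypes were measured in a separate table, and 5 of the 6 CD4 animals compared also gave a CD8 library. edgeR on the counts of 13554 genes called 9 between Vav1CreTet2KO and Cd4CreTet2KO (0.0664%), 6 higher and 3 lower, with 1449 at an unadjusted p under 0.05. Of these 9, 8 were tested in CD8 cells, in libraries that partly share animals. Rps29, a ribosomal protein gene, read 1349, 1093 and 439 RPKM against 271, 173 and 213 in CD4 cells. In CD8 cells it read 1549, 408 and 491 against 367, 369, 367 and 270 (difference 0.99, and 0.39 without Vav1CreTet2KO replicate 1). CD4 Vav1CreTet2KO replicate 1, from the animal of the CD8 library that stood apart, had 707866 reads, against 7501026 to 17575534 in the other 5 CD4 libraries.

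For some genes described above, CD4 values stood as follows, and the difference between the cell types was not tested. Cd40lg read 43.3, 25.3 and 56.2 RPKM against 20.7, 5.66 and 19.9 in CD4 cells, also without overlap (edgeR adjusted p 0.328). Ifng read 29.1, 34.8 and 38.7 against 10.2, 4.67 and 12.7 in CD4 cells, without overlap, whereas its CD8 groups overlapped (edgeR adjusted p 0.152). Klrd1, Klrk1 and Klrc1 read 2.84 to 28.0 RPKM in Vav1CreTet2KO and 0.436 to 2.98 in Cd4CreTet2KO CD4 libraries. None of them overlapped there (edgeR adjusted p 0.255 to 0.468). The value of 28.0, of Klrd1, came from Vav1CreTet2KO replicate 1, the CD4 library with 707866 reads. Several genes of other cells did not overlap in these CD4 libraries either. Tyrobp read 114, 156 and 46.2 against 15.6, 6.47 and 8.59, and H2-Aa 157, 93.1 and 59.0 against 24.8, 10.9 and 23.1. Lyz2, Csf1r, Clec9a and S100a9 were also higher without overlap, while Flt3, Siglech and Adgre1 overlapped. The part of other cells in the CD4 values was not tested. H4c6 and H3c10 overlapped there, H4c6 at 22.1, 20.1 and 2.39 against 11.5, 8.24 and 5.21. Pdcd1 had all Vav1CreTet2KO CD4 libraries below the others, at 13.2, 18.2 and 10.5 against 39.2, 59.0 and 37.8 (edgeR adjusted p 0.0751), whereas its CD8 groups overlapped. Nr4a1, Tnfaip3 and Fosl2, with positive CD8 differences, also had all Vav1CreTet2KO CD4 libraries below the Cd4CreTet2KO ones. Their edgeR differences in CD4 cells were -0.46, -0.60 and -0.73 (edgeR adjusted p 0.465, 0.401 and 0.339). Bach2 and Tnf overlapped there, at 1.01 and -0.15, against -0.99 and 1.18 in CD8 cells. Ccl5 and Tbx21 also overlapped there but kept the CD8 sign, at 1.39 and 1.32.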

How the data were processed

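For each cell type the authors deposited a table of 25639 genes, with RPKM for CD8 cells and counts and RPKM for CD4 cells, per the file headers. The submitters' processing notes name the builds GRCm38 and mm10, and the sources used here name no aligner or counter. In all, 18 per-sample columns were not used. Groups came from the sample titles, which give separate biological replicates.

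CD8 genes that reached 1 RPKM in 3 or more of 10 libraries were tested with limma 3.58.1 (R 4.3.3) on log2(RPKM + 1), with a trend, all 3 genotypes in 1 fit and Benjamini-Hochberg adjustment at 0.05. Reads were recovered from RPKM with gene lengths implied by the CD4 counts and RPKM: of 134905 values above 0, 100% were within 0.01 of a whole number. They served for depth and for edgeR 4.0.16, voom and DESeq2 1.42.0 as alternatives, since the deposited values were not counts. In most libraries low recovered counts were mostly even, but 50.6% were odd in Vav1CreTet2KO replicate 1 against 13.1% to 25.3% in the others, so its total may be in another unit. CD4 counts were tested with edgeR's quasi-likelihood test (filterByExpr, TMM). Scripts were checked on simulated data. PCR reads carry no molecular identifiers here.

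Named genes were Tet2, genes of each list by smallest p, fixed state genes and markers, and up to 15 genes per direction by smallest p whose groups did not overlap, as few were called. Other settings varied the pseudocount (0.1), filter (none, 5 RPKM), scaling, weights, samples in the fit and a replicate block. The comparison, its gene lists and the rule were chosen with earlier results of these data known, and support nothing independently. Beyond those given in the results, further listed genes were computed by the same rule and are not named, and some named by the rule are not reported here.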

Additional observations from a re-analysis of the deposited data

Results flagged for a closer look

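In 7 of 127 named genes, 1 of the 4 Cd4CreTet2KO libraries lay far from the other 3, by Dixon's test for a single far value, which chance meets in about 1 group in 20. The share of genes is therefore near what chance gives. Tet3 was low in replicate 2, at 10.1 RPKM, although by a small amount. Ifi204 (8.83), Tyrobp (84.1) and Gtf2f2 (12.8) were high in replicate 1, which also held Lyz2 at 172 RPKM. Rpl29 was high in replicate 3, at 658 RPKM, mt-Atp8 was low in replicate 2, at 387 RPKM, and Rps29 was low in replicate 4, at 269.97 RPKM. Groups of 3 libraries were not examined in this way.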

How the results depend on the processing

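Of 126 named and tested genes, 105 kept their sign in every alternative run. The count of called CD8 genes, 0 in the results, was 2 with only the 7 compared libraries, 41 with DESeq2 and 0 to 1 with single replicates left out (Gm12666 without Vav1CreTet2KO replicate 2, Igkv12-46 without Cd4CreTet2KO replicate 3, and H3c10 or H4c6 without Tet2fl/fl replicate 1 or 2). It was 1 (Cd209d) without Vav1CreTet2KO replicate 1 and both Cd4CreTet2KO replicates 1 and 2, a setting added after seeing the data, as was edgeR without Vav1CreTet2KO replicate 1 (0). The replicate block gave 0 CD8 calls, with Tet2 at 0.0062; numbers did not pair animals (correlations 0.07, -0.06 and 0.03), and the block gave 13 CD4 calls against 9. The CD4 count was 403 with no filter, 411 with DESeq2, 3 with only the 6 compared libraries and 2 to 719 with single replicates left out, highest without Vav1CreTet2KO replicate 3.

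Scaling moved the median of all genes from 0.04 to -0.04 (rescaled RPKM) and -0.03 (edgeR). Signs turned as follows. With array weights Tox was 0.21. With voom Tox was 0.24, Gzma -0.079, Cd4 0.67 and Epcam -0.15. With edgeR without Vav1CreTet2KO replicate 1 Tox was 0.29, Havcr2 -0.031, H2-Ab1 -0.11, Cd74 -0.073, Flt3 -0.13 and Epcam -0.22. Without Cd4CreTet2KO replicates 1 and 2 Tet2 was 0.22, Gzmk 0.37, Lyz2 0.89, Csf1r 0.33, Cd3e -0.069, Cd4 0.74 and S100a9 0.057. Without these and Vav1CreTet2KO replicate 1 Tet2 was 0.048, Tox 0.40, Tigit -0.084, Prf1 0.039, Gzmk 0.78, Cd69 -0.10, Lyz2 1.15, Csf1r 0.51, Cd3e -0.036, Cd4 1.05 and S100a9 0.20. Leaving out single replicates gave ranges across 0 for Tet2 (-0.19 to 0.26), Tox (-0.49 to 0.33), Havcr2 (-0.0032 to 0.84), Gzma (-0.044 to 1.01), Gzmk (-0.69 to 0.11), Ccr7 (-0.78 to 0.21), Klf3 (-0.35 to 0.22), Cd8a (-0.022 to 0.33), Cd4 (-0.87 to 0.17), Alb (-0.13 to 0.71) and Epcam (-0.065 to 0.80). Except where fewer libraries show it, the cause was not tested. Depth was lower in Vav1CreTet2KO replicates 2 and 3 than in Cd4CreTet2KO libraries, which limits genes near 1 RPKM. The total of Vav1CreTet2KO replicate 1 may be in another unit, so its depth in reads cannot be compared. It had the fewest genes above 0 of the 7 libraries, 10762 against 12613 to 16258, a limit for genes near 1 RPKM. Plk1 and H3c10, at 0 in that library, differed by -1.32 and -3.08 without it.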
